A study of Mus musculus with 6 samples.

Results

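This report describes 35 genes of cranial neural crest specification and migration in the heads of mouse embryos, taken by symbol from the 24421 gene symbols of the deposited count table. The genes are listed for their known roles, and they fall into 4 groups. These are 8 genes of the neural plate border, 9 specifiers of the neural crest, 10 receptors and adhesion molecules of migrating cells, and 8 genes of the cranial mesenchyme and other derivatives. All 35 had enough counts to be tested.

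Neural crest cells are induced where the neural plate meets the surface ectoderm, leave the dorsal neural tube through an epithelial-to-mesenchymal transition and migrate into the face and the pharyngeal arches. In the head they form much of the facial skeleton and connective tissue, and they also give rise to neurons and glia of the cranial ganglia and to pigment cells. Border factors of the PAX, ZIC and TFAP2 families act first, specifiers such as FOXD3 and the SOXE and SNAI proteins follow, and surface receptors and cadherins then set where the cells go and what they adhere to.

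RNAseq was performed on whole heads at E9.0 (embryonic day 9.0), before the mutants can be told from controls by their morphology. *Snrpb* encodes a core protein of the spliceosomal small ribonucleoprotein particles, and the comparison asks what its loss on 1 allele does to gene expression at this stage. The control group held 3 libraries labelled wild type (*Snrpb* +/+, called WT here). The mutant group held 3 libraries labelled SnrpB+/-, in which 1 *Snrpb* allele carried loxP sites around exons 2 and 3 and was deleted by the *Wnt1-Cre2* transgene (*Snrpb*ncc+/-, called mutants here). *Wnt1-Cre2* is active in the developing brain and the neural crest cells, and the remaining cells of these heads keep both copies. Each library came from 2 pooled heads of the same genotype with matched somite numbers, from different litters. The labels give C57BL/6 as the strain and also the name CD1 for every sample, and they call the age both postnatal day 9 and E9.0. Whether the WT heads carried the loxP allele or the Cre transgene is not given in the sources used here. Because whole heads were used, neural crest cells were only a portion of each sample, and fewer neural crest cells cannot be told apart from less RNA per cell.

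Between 36378803 and 58946111 reads were counted per WT library and between 42398206 and 74909774 per mutant library. The 35 genes took 0.182, 0.170 and 0.193% of the counts in WT replicates 1, 2 and 3 and 0.169, 0.175 and 0.184% in mutant replicates 1, 2 and 3, and single genes held from 155 to 20201 reads in a library. Levels are given below as CPM, the reads of a gene relative to the TMM-scaled total of its library, and sets of 3 values always run from replicate 1 to replicate 3. *Snrpb* itself was at 429.9, 438.2 and 414.2 CPM in WT and at 436.5, 412.4 and 430.3 CPM in mutants. Its groups overlapped, with a log2 fold change of -0.004 (SE 0.039). This count covers all exons and all cells of the head, so it does not check the genotype labels. *Otx2*, a forebrain and midbrain gene, lay between 105 and 141 CPM. All 7 posterior Hox genes on the trunk marker list were below 0.5 CPM in every library. Of the 20 genes on that list, 10 were below this limit throughout. Others were above it in every library, among them *Meox1* (1.35 to 9.78 CPM), *Tbx18* (3.85 to 4.59 CPM) and *Tbx6* (1.04 to 1.35 CPM). *Otx2* and the Hox genes did not go against the label of head tissue, but the share of other tissue was not tested. The replicates came from separate pools of embryos, and SDs measure the spread between these pools. The edgeR p-values compare the groups against a spread that was estimated with information from all genes tested.

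WT replicate 1 stood apart from the other 5 libraries in markers of several cell types. The summed level of 20 neural tube markers was 1024 CPM there and 814 to 864 CPM in the other libraries. The 10 erythroid markers summed to 1533 CPM in that library against 905 to 1246 CPM elsewhere, while the 10 surface ectoderm markers summed to 322 CPM against 430 to 438 CPM. The 10 cardiac markers summed to 12.1, 74.6 and 58.2 CPM in WT and to 33.5, 70.8 and 124 CPM in mutants, and 2 of the 10 (*Nppa* and *Tbx5*) were below 0.5 CPM in every library. The 20 somite and trunk markers, 10 of them below 0.5 CPM throughout, summed to 13.9 CPM in WT replicate 1 and to 23.8 to 31.9 CPM in the others. Cranial mesoderm markers summed to 140 CPM there against 149 to 158 CPM in the others. The part of these differences in the values of the neural crest genes was not tested, and values without WT replicate 1 are given for genes in which it was far from the rest.

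No neural crest gene passed the threshold in mutant heads. The 35 log2 fold changes of mutant over WT ran from -0.50 (*Alx4*) to 0.14 (*Tfap2a*). Of these, 12 were above and 23 below 0, with a median of -0.05. Of all 15584 genes tested, 7829 were above and 7755 below 0, with a median of 0.0004. With edgeR's quasi-likelihood test, 0 of the 35 genes had an adjusted p under 0.05, and the smallest was 0.4999, for *Ednrb*. Of all genes tested, 0.00642% passed (1 gene), so the count of 0 among the 35 does not set them apart from the rest. DESeq2 called 0.651% of the genes it tested and likewise 0 of the 35, with a smallest adjusted p of 0.325 for *Prrx1*.

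Counts at looser limits were small as well in the fit of all libraries. At an unadjusted p under 0.05 (edgeR), 0 neural crest genes were higher and 1 was lower in mutants, where 4.34% of all genes were higher and 4.09% lower. Groups that did not overlap were found for 0 genes with mutants higher and for 1 gene with mutants lower, against 8.32% and 6.92% of all genes. The 1 gene was *Ednrb* in both counts. Without WT replicate 2, 10 genes had non-overlapping groups, all lower in mutants, but 14.4% of all genes then did so in that direction. Without WT replicate 1 the count was 3 (*Ednrb*, *Erbb3* and *Nrp1*, all lower), where 14.2% of all genes were apart and lower. Without WT replicate 3 it was 5, with 4 higher and *Ednrb* lower, where 23.9% of all genes were apart in either direction. Without mutant replicates 1, 2 and 3 in turn, 5, 2 and 4 neural crest genes were apart in either direction, where 25.5, 22.4 and 24.0% of all genes were.

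The precision of these comparisons set limits on the changes in whole heads that could have been missed. These limits do not apply to neural crest cells alone, which were only a portion of each sample. For 29 of the 35 genes the 95% interval of the fold change lay within a 1.5-fold change in either direction, which was so for 74.8% of all genes tested. The 6 others were *Zic1*, *Pax7*, *Sox8*, *Itga4*, *Prrx1* and *Alx4*, and for each of them the lower end of the interval passed a 1.5-fold decrease while the upper end stayed below a 1.5-fold increase. For these 6 genes a decrease of that size was not excluded by the data. The median SE of the 35 log2 fold changes was 0.11, and single SEs ran from 0.05 (*Cdh6*) to 0.27 (*Alx4*).

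**Figure D1:**
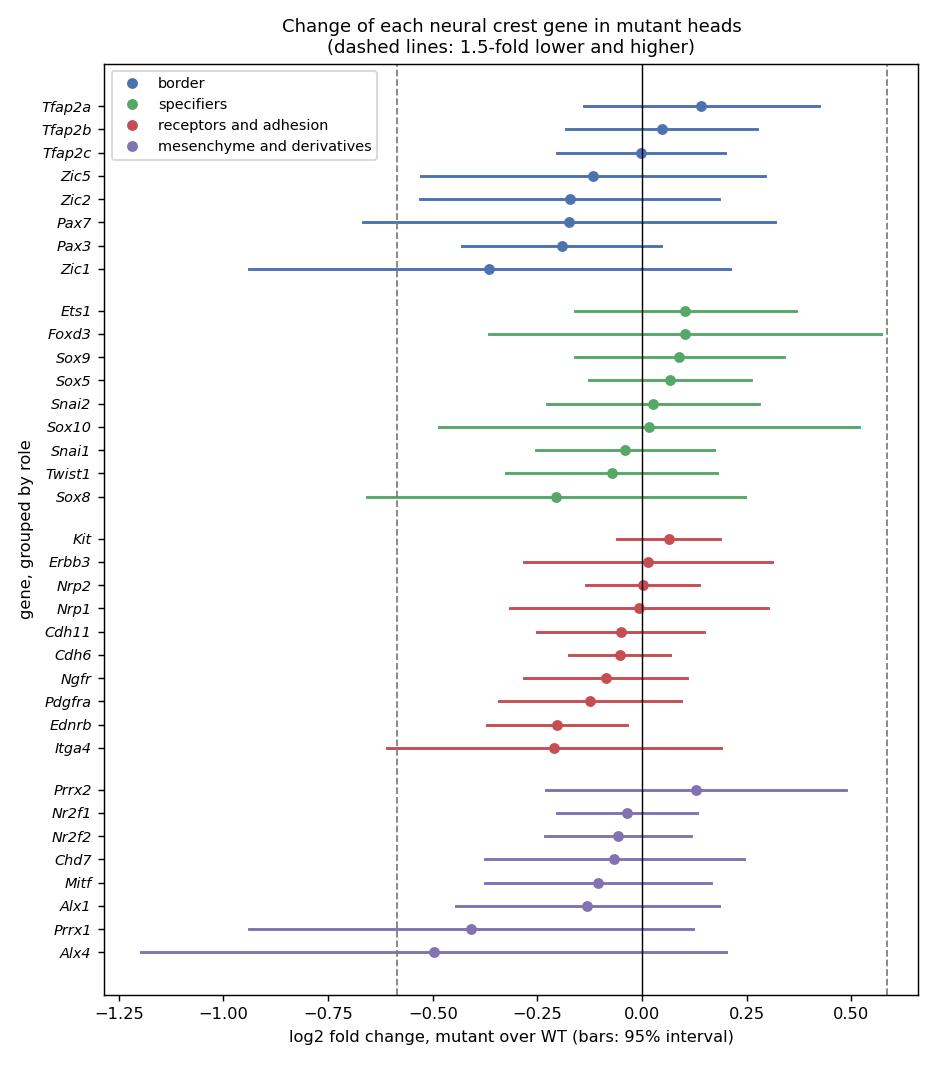
Log2 fold change of each of the 35 neural crest genes, mutant over WT (x axis), with the genes on the y axis coloured by role. Points are edgeR estimates from 3 WT and 3 mutant libraries, bars are 95% intervals and the dashed lines mark a 1.5-fold change. All intervals but that of *Ednrb* include 0, and those of 6 genes cross the left dashed line.

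Per length of gene model, the most abundant of the 35 was *Twist1*, at 44.6 ± 6.07 CPM per kb in WT (SD, n = 3 libraries) and 42.3 ± 3.91 CPM per kb in mutants. *Cdh11* (24.8 ± 2.58 CPM per kb in WT), *Chd7* (20.6 ± 3.00) and *Zic2* (20.5 ± 3.17) followed. The levels of *Chd7* and *Zic2* differed by less than their SDs. At the low end were *Mitf* (0.99 ± 0.10 CPM per kb in WT), *Itga4* (1.14 ± 0.22) and *Tfap2a* (1.18 ± 0.16). Lengths are the union of the exons in Gencode M21, so a gene with many unused exons gets too low a level on this scale.

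**Figure D2:**
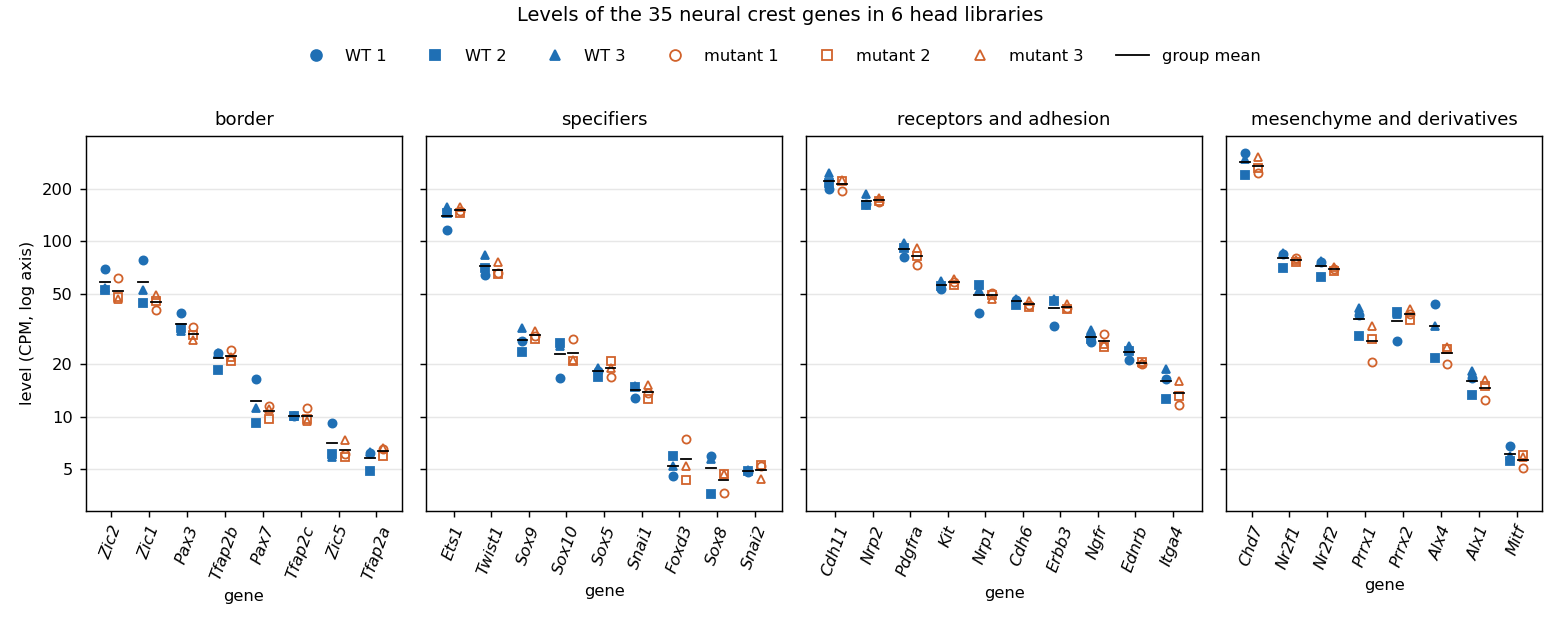
Level of each neural crest gene in CPM (log axis) in the 3 WT libraries (filled) and the 3 mutant libraries (open), in 4 panels by role. Marker shapes give the replicate number and black lines the group means. The mutant and WT points overlap for all genes but *Ednrb*, whose mutant values of 19.9 to 20.5 CPM are just below the WT values of 20.98 to 25.4 CPM.

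Among the 8 border genes, 2 had a log2 fold change above 0 and 6 below, with a median of -0.14. The PAX and ZIC factors made up 5 of the 6 below 0. *Pax3*, a paired box factor of the dorsal neural tube and the crest, was at 39.3, 32.0 and 30.8 CPM in WT and at 32.7, 29.1 and 27.5 CPM in mutants. Its log2 fold change was -0.19 (SE 0.10, 95% interval -0.43 to 0.04), and the highest mutant library overlapped the lower 2 WT libraries. Without WT replicate 1 the log2 fold change of *Pax3* was -0.08, and over all 12 alternatives it ran from -0.26 to -0.08. *Pax7*, its close relative, was at 16.4, 9.18 and 11.2 CPM in WT and at 11.6, 9.75 and 11.1 CPM in mutants. For *Pax7* WT replicate 1 was the highest library and WT replicate 2 the lowest, so that the WT group spanned the mutant group. Its log2 fold change was -0.17 (SE 0.21), and without WT replicate 1 it was 0.09.

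*Zic1*, a zinc finger factor of the dorsal neural tube and the border, was at 78.2, 44.5 and 52.7 CPM in WT and at 40.4, 45.6 and 49.7 CPM in mutants. The WT value in replicate 1 was above all others, and the remaining 5 libraries were mixed. The log2 fold change was -0.36 (SE 0.23, 95% interval -0.94 to 0.21), and it was -0.10 without WT replicate 1. Over all 12 alternatives it ran from -0.53 to -0.10. *Zic2* was at 69.5, 53.0 and 54.4 CPM in WT and at 61.9, 48.1 and 47.2 CPM in mutants. *Zic5* was at 9.15, 6.10 and 5.89 CPM in WT and at 6.11, 5.92 and 7.37 CPM in mutants. As for *Zic1*, WT replicate 1 was the highest library for both, and the log2 fold changes were -0.17 (SE 0.15) for *Zic2* and -0.12 (SE 0.18) for *Zic5*. Without that library they were -0.04 for *Zic2* and 0.11 for *Zic5*. Over all 12 alternatives they ran from -0.31 to -0.04 for *Zic2* and from -0.23 to 0.11 for *Zic5*. The span of *Zic1* overlaps that of *Zic4* on the opposite strand. Whether their exons overlap was not checked, and it is not given whether counting used the strand, so reads of *Zic1* could be miscounted.

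For each of the TFAP2 factors, which act at the border and again in the specified crest, the highest library was a mutant one. *Tfap2a* was at 6.18, 4.89 and 6.32 CPM in WT and at 6.51, 5.95 and 6.65 CPM in mutants. It had the highest log2 fold change of the 35 genes, 0.14 (SE 0.12, 95% interval -0.14 to 0.42), and its groups overlapped. *Tfap2b* was at 23.1, 18.4 and 23.1 CPM in WT and at 24.1, 20.7 and 21.9 CPM in mutants (log2 fold change 0.05, SE 0.10). *Tfap2c* was at 10.1, 10.1 and 10.1 CPM in WT and at 11.2, 9.64 and 9.51 CPM in mutants. The log2 fold change of *Tfap2c* was -0.003 (SE 0.089), and its 3 WT libraries were closer together than the mutant ones.

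The 9 specifiers had a median log2 fold change of 0.03, with 6 above and 3 below 0, and all but *Sox8* had an interval within a 1.5-fold change. *Foxd3*, a forkhead factor and one of the earliest specifiers, was at 4.56, 5.94 and 5.22 CPM in WT and at 7.51, 4.34 and 5.25 CPM in mutants. *Sox10*, the SOXE factor of migrating crest and its glial and pigment cell lineages, was at 16.7, 26.2 and 25.4 CPM in WT and at 27.9, 20.7 and 21.01 CPM in mutants. For both genes mutant replicate 1 was the highest of all 6 libraries, and for *Sox10* WT replicate 1 was the lowest. The log2 fold change was 0.10 (SE 0.20) for *Foxd3*. It was 0.02 (SE 0.20, 95% interval -0.49 to 0.52) for *Sox10*, -0.17 without WT replicate 1 and -0.13 without mutant replicate 1.

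The other SOX genes had log2 fold changes on both sides of 0. *Sox9*, a SOXE factor needed for crest survival and later for cartilage, was at 27.2, 23.4 and 32.0 CPM in WT and at 28.9, 27.6 and 31.0 CPM in mutants (log2 fold change 0.09, SE 0.11). *Sox8*, the third SOXE gene, was at 5.93, 3.63 and 5.73 CPM in WT and at 3.67, 4.68 and 4.74 CPM in mutants (log2 fold change -0.21, SE 0.20). *Sox5*, a SOXD factor that works with SOXE proteins, was at 18.3, 16.9 and 19.1 CPM in WT and at 16.9, 20.7 and 19.1 CPM in mutants (log2 fold change 0.07, SE 0.09). In all 3 genes the groups overlapped, and the value of *Sox8* was -0.08 without WT replicate 1. Over all 12 alternatives the value of *Sox8* ran from -0.41 to -0.08. *Sox8* and *Sox5* each overlap another gene on the opposite strand.

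The genes of the epithelial-to-mesenchymal transition had small differences between the groups. *Snai1*, a repressor of E-cadherin, was at 12.9, 14.7 and 15.1 CPM in WT and at 13.7, 12.6 and 15.2 CPM in mutants. *Snai2*, its relative in premigratory and migrating crest, was at 4.86, 4.89 and 4.95 CPM in WT and at 5.26, 5.29 and 4.44 CPM in mutants. Their log2 fold changes were -0.04 (SE 0.09) and 0.03 (SE 0.11). *Twist1*, a bHLH factor of crest-derived and mesodermal head mesenchyme, was at 63.9, 70.3 and 83.3 CPM in WT and at 65.7, 64.8 and 76.3 CPM in mutants (log2 fold change -0.07, SE 0.11). *Ets1*, a factor of cranial crest delamination that endothelial cells also express, was at 116, 146 and 158 CPM in WT and at 148, 146 and 157 CPM in mutants. For *Ets1* WT replicate 1 was the only library below 145 CPM, and the log2 fold change was 0.10 (SE 0.11) with it and -0.02 without it.

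Among the 10 receptors and adhesion molecules, 3 log2 fold changes were above and 7 below 0, with a median of -0.05. *Ednrb* (ENSMUSG00000022122.15), the receptor through which endothelin 3 acts on crest cells that form pigment cells and enteric neurons, lies at chr14:103814625-103844402 on the minus strand of mm10. It was at 20.98, 23.6 and 25.4 CPM in WT and at 19.9, 20.5 and 20.4 CPM in mutants. All 3 mutant libraries were below all 3 WT libraries, the gap between the closest pair being smaller than the spread within WT. The mean over the 3 WT libraries was 23.3 ± 2.22 CPM and that over the 3 mutant libraries 20.3 ± 0.33 CPM (± SD). Its log2 fold change was -0.20 (SE 0.07, 95% interval -0.37 to -0.04), and with edgeR the adjusted p was 0.4999 over all genes, so *Ednrb* did not pass the threshold. DESeq2 gave an adjusted p of 0.442. Over all 12 alternatives the log2 fold change of *Ednrb* stayed between -0.28 and -0.14 and the adjusted p between 0.263 and 0.950.

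*Erbb3*, the neuregulin receptor of crest cells and Schwann cell precursors, was at 33.1, 45.6 and 46.7 CPM in WT and at 41.6, 41.4 and 43.8 CPM in mutants. WT replicate 1 was the lowest of the 6 libraries, and the log2 fold change was 0.01 (SE 0.12) with it and -0.13 without it. *Nrp1*, a semaphorin and VEGF receptor of migrating crest and endothelium, was at 39.2, 56.5 and 52.5 CPM in WT and at 51.0, 49.6 and 47.2 CPM in mutants. The same library was the lowest for *Nrp1*, whose log2 fold change was -0.01 (SE 0.13) with it and -0.15 without it. *Nrp2*, the second neuropilin, was at 164, 162 and 188 CPM in WT and at 167, 170 and 177 CPM in mutants (log2 fold change 0.001, SE 0.060). Its 95% interval ran from -0.13 to 0.14.

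*Kit*, the stem cell factor receptor of pigment cell precursors, had one of the narrowest intervals. It was at 53.3, 56.0 and 59.1 CPM in WT and at 59.0, 56.3 and 60.8 CPM in mutants, with a log2 fold change of 0.06 (SE 0.05, 95% interval -0.06 to 0.19). *Ngfr*, the p75 neurotrophin receptor that is widely used to mark crest cells, was at 26.6, 27.7 and 31.4 CPM in WT and at 29.8, 25.0 and 25.9 CPM in mutants. *Pdgfra*, the PDGF receptor of head mesenchyme, was at 81.4, 91.3 and 97.6 CPM in WT and at 73.6, 82.6 and 91.7 CPM in mutants. The highest mutant library overlapped the WT group for *Ngfr*, and mutant replicates 2 and 3 did for *Pdgfra*. The log2 fold changes were -0.09 (SE 0.09) for *Ngfr* and -0.12 (SE 0.09) for *Pdgfra*.

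The adhesion genes differed in precision more than in direction. *Cdh6*, a cadherin of premigratory crest, was at 46.3, 43.5 and 46.8 CPM in WT and at 43.4, 42.3 and 45.8 CPM in mutants. *Cdh11*, a cadherin of migrating crest and mesenchyme, was at 200, 217 and 246 CPM in WT and at 194, 223 and 223 CPM in mutants. Both had a log2 fold change of -0.05, with an SE of 0.05 for *Cdh6* and 0.09 for *Cdh11*. *Itga4*, an integrin subunit that binds fibronectin and VCAM1, was at 16.5, 12.6 and 18.6 CPM in WT and at 11.7, 13.2 and 16.1 CPM in mutants. It had the widest interval of the 10, with a log2 fold change of -0.21 (SE 0.17, 95% interval -0.61 to 0.19). *Itga4* overlaps *Cerkl* on the opposite strand, so the limit given for *Zic1* applies to it too. It also applies to *Tfap2a*, *Nr2f1* and *Nr2f2*, which each overlap another gene on the opposite strand.

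The 8 genes of mesenchyme and derivatives had 1 log2 fold change above 0 and 7 below, with a median of -0.09. The 2 lowest log2 fold changes of all 35 genes were in this group. *Alx4*, a homeobox factor of frontonasal mesenchyme at chr2:93642384-93681339 on the plus strand of mm10, was at 44.0, 21.6 and 32.9 CPM in WT and at 19.9, 24.2 and 25.1 CPM in mutants. WT replicates 1 and 3 were above all mutant libraries and WT replicate 2 was below 2 of them. The highest WT value of *Alx4* was 2.03 times the lowest, against 1.26 times among mutants. The log2 fold change was -0.50 (SE 0.27, 95% interval -1.20 to 0.20, edgeR adjusted p = 0.681), and it ran from -0.73 without WT replicate 2 to -0.23 without WT replicate 1. *Alx4* overlaps *Ext2* on the opposite strand.

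*Prrx1*, a homeobox factor of cranial and limb mesenchyme, was at 37.8, 29.0 and 41.7 CPM in WT and at 20.4, 27.9 and 32.8 CPM in mutants. Only mutant replicate 3 overlapped the WT group, by passing WT replicate 2. The log2 fold change of *Prrx1* was -0.41 (SE 0.21, 95% interval -0.94 to 0.12, edgeR adjusted p = 0.668), and -0.25 without mutant replicate 1. Over all 12 alternatives it ran from -0.58 to -0.25. *Prrx2*, its paralogue, was at 26.9, 39.6 and 38.5 CPM in WT and at 38.4, 35.4 and 41.2 CPM in mutants (log2 fold change 0.13, SE 0.15). Without WT replicate 1 this value was -0.03. The paralogues thus had values on opposite sides of 0, neither past the threshold, and the difference between them was not tested. *Alx1*, a frontonasal factor related to *Alx4*, was at 16.7, 13.3 and 18.1 CPM in WT and at 12.4, 15.04 and 16.2 CPM in mutants (log2 fold change -0.13, SE 0.14).

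The remaining 4 genes of this group had overlapping groups and intervals within a 1.5-fold change. *Mitf*, the regulator of pigment cell fate, was at 6.81, 5.57 and 6.00 CPM in WT and at 5.07, 6.05 and 5.88 CPM in mutants (log2 fold change -0.10, SE 0.12). *Chd7*, a chromatin remodeller that is mutated in CHARGE syndrome and acts in crest and neural tissue, was at 320, 239 and 294 CPM in WT and at 246, 264 and 304 CPM in mutants (log2 fold change -0.07, SE 0.13). For *Chd7* WT replicates 1 and 2 were the highest and the lowest of the 6 libraries. *Nr2f1*, a nuclear receptor of cranial crest enhancers, was at 84.4, 70.5 and 85.9 CPM in WT and at 80.1, 76.1 and 78.3 CPM in mutants (log2 fold change -0.04, SE 0.07). *Nr2f2*, its relative, was at 76.4, 63.1 and 77.3 CPM in WT and at 69.7, 67.4 and 71.1 CPM in mutants (log2 fold change -0.06, SE 0.08). In both nuclear receptor genes the mutant libraries lay inside the WT range.

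WT replicate 1 was above the mean for some neural crest genes and below it for others. All 8 border genes were above their mean there, and each of the other roles held genes on both sides. Border genes were on average 0.30 above their mean over 6 libraries in WT replicate 1 on the log2 CPM scale, and mesenchyme genes were 0.17 above, while specifiers were 0.11 and receptors 0.09 below, and these differences between roles were not tested. Single genes ranged from 0.63 (*Zic1*) to 0.002 (*Tfap2c*) among the border genes, from -0.44 (*Sox10*) to 0.35 (*Sox8*) among specifiers and from -0.43 (*Prrx2*) to 0.71 (*Alx4*) among mesenchyme genes. That library was the highest of the 6 for 9 of the 35 genes (*Pax3*, *Pax7*, *Zic1*, *Zic2*, *Zic5*, *Sox8*, *Alx4*, *Mitf* and *Chd7*) and the lowest for 7 (*Sox10*, *Twist1*, *Ets1*, *Erbb3*, *Kit*, *Nrp1* and *Prrx2*). Over all genes tested it was the highest for 24.7% and the lowest for 24.6%. Neural tube markers were 0.23 above and cranial mesoderm markers 0.32 below their mean in the same library, and the part of tissue composition in these values was not tested.

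The other libraries had patterns of their own. WT replicate 3 was the highest for 15 of the 35 genes, 42.9% against 17.7% of all genes tested. It was the lowest for 1, 2.86% against 19% of all genes. WT replicate 2 was the highest for 1 gene (*Nrp1*), 2.86% against 13.9% of all genes, and the lowest for 9, 25.7% against 14%. Mutant replicate 1 was the lowest for 10 genes, 28.6% against 17.2% of all genes, among them *Alx1*, *Alx4*, *Prrx1*, *Pdgfra* and *Itga4*. In sum over the 35 genes, WT libraries had 1816, 1707 and 1949 CPM and mutant libraries 1695, 1721 and 1840 CPM. The summed levels of the 2 groups overlapped.

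**Figure D3:**
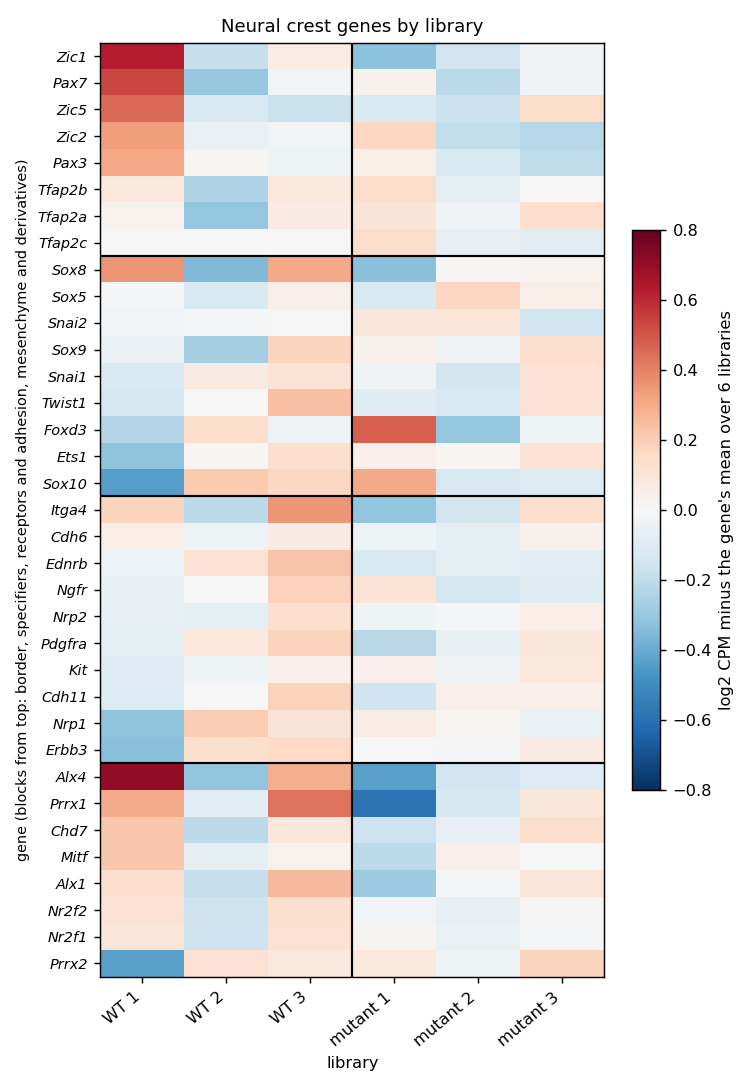
Log2 CPM of each neural crest gene in each library minus its mean over the 6 libraries, as colours (red above, blue below). Rows are genes in 4 blocks by role, ordered within a block by WT replicate 1, and columns are the 3 WT and 3 mutant libraries. WT replicate 1 is red for the PAX and ZIC border genes and blue for *Sox10*, *Erbb3*, *Nrp1* and *Prrx2*.

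**Figure D4:**
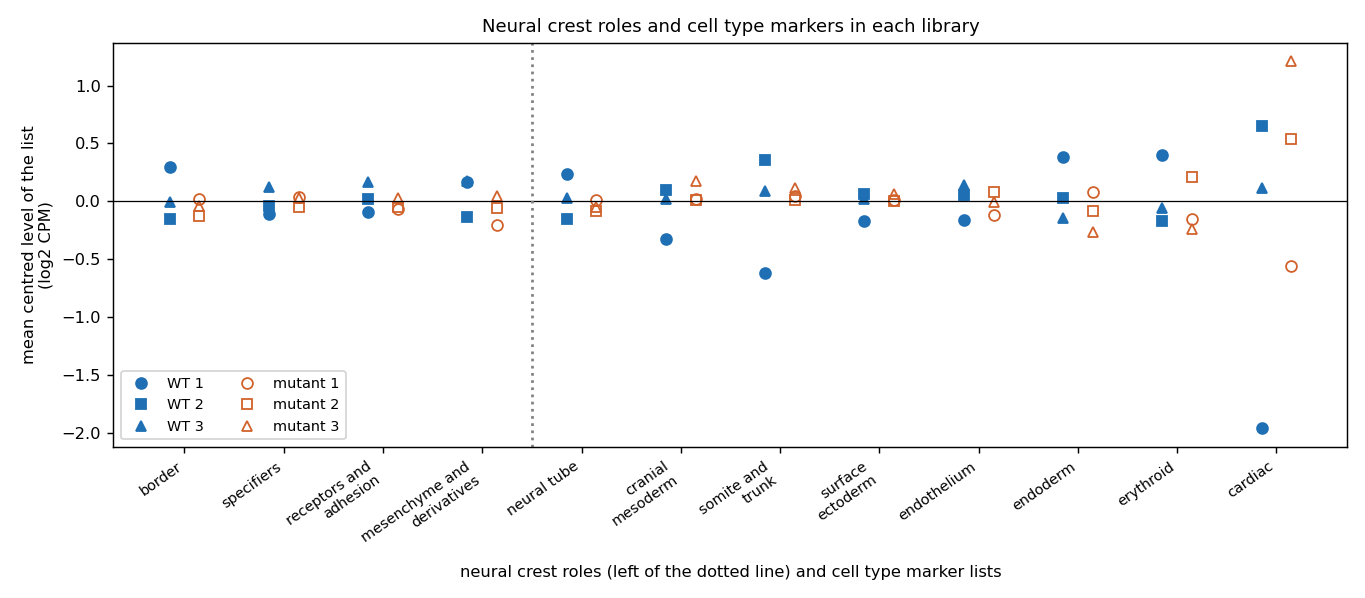
Mean centred level (log2 CPM) of the 4 groups of neural crest genes (left of the dotted line) and of 8 lists of cell type markers in each library, with WT filled and mutants open. Border genes and neural tube markers are both highest in WT replicate 1 (0.30 and 0.23), and cardiac markers range from -1.96 in that library to 1.21 in mutant replicate 3.

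The wider neural crest program was read from 62 other genes of neural crest cells and their derivatives, of which 61 were tested. None passed an adjusted p under 0.05 with edgeR or DESeq2. At an unadjusted p under 0.05, 0 were higher and 5 lower in mutants, against 4.34% and 4.09% of all genes. For 4 of these 5 the groups did not overlap, and these were the only genes of the 61 with groups apart. Over all genes tested, 8.32% were apart with mutants higher and 6.92% with mutants lower. *Crabp2*, a retinoic acid binding protein, was at 304, 318 and 297 CPM in WT and at 285, 281 and 286 CPM in mutants (log2 fold change -0.11, SE 0.04, edgeR adjusted p = 0.478). *Rhob*, a small GTPase of crest delamination, was at 69.4, 64.4 and 70.3 CPM in WT and at 62.5, 59.3 and 60.8 CPM in mutants (log2 fold change -0.16, SE 0.05, edgeR adjusted p = 0.437). All mutant libraries were below all WT libraries for both genes. *Foxd1*, a forkhead factor, was at 23.8, 25.2 and 25.6 CPM in WT and at 22.6, 23.0 and 22.5 CPM in mutants (log2 fold change -0.13, SE 0.05, edgeR adjusted p = 0.551). *Sox11* was also at an unadjusted p under 0.05, but its groups overlapped. The median log2 fold change of the 61 genes was -0.02. *Dct*, an enzyme of melanin synthesis, was too low to be tested, and it was below 0.5 CPM in every library.

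The ligands, co-receptors and other partners of the receptors and factors above were read from a list of 38 genes. None of them passed an adjusted p under 0.05 with edgeR, and 1 (*Sema3c*) did with DESeq2. At an unadjusted p under 0.05, 1 was higher (*Vegfa*) and 7 were lower in mutants, against 4.34% and 4.09% of all genes. Groups did not overlap for 2 genes with mutants higher (*Vegfa* and *Yap1*) and for 7 with mutants lower, against 8.32% and 6.92% of all genes. The median log2 fold change of the list was -0.003.

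*Sema3c*, a secreted semaphorin that signals through neuropilins and plexins, was at 27.7, 28.1 and 27.7 CPM in WT and at 22.5, 23.5 and 23.9 CPM in mutants. The gap between the groups was wider than the spread within either of them. Its log2 fold change was -0.25 (SE 0.05, 95% interval -0.37 to -0.14). The adjusted p was 0.309 with edgeR and 0.0389 with DESeq2, and DESeq2 was the only one of 12 alternatives in which it passed. *Sema3a*, a repellent for crest cells that signals through *Nrp1*, was at 64.4, 67.9 and 72.1 CPM in WT and at 62.3, 67.8 and 67.6 CPM in mutants. *Sema3f*, which signals through *Nrp2*, was at 41.4, 40.5 and 38.8 CPM in WT and at 43.1, 39.8 and 41.7 CPM in mutants. Both overlapped between the groups, with log2 fold changes of -0.05 (SE 0.06) and 0.05 (SE 0.05). *Vegfa*, a growth factor that also binds neuropilins, was at 54.1, 54.96 and 50.8 CPM in WT and at 59.3, 61.6 and 58.0 CPM in mutants (log2 fold change 0.16, SE 0.05, edgeR adjusted p = 0.437).

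For *Ednrb* and *Kit*, the ligands were near the same level in both groups. *Edn3* was at 7.22, 8.396 and 8.14 CPM in WT and at 7.84, 8.59 and 7.82 CPM in mutants. *Kitl* was at 26.8, 30.1 and 33.5 CPM in WT and at 28.2, 32.1 and 29.1 CPM in mutants. Their log2 fold changes were 0.03 (SE 0.10) and -0.02 (SE 0.09). *Nrg1*, the ligand of *Erbb3*, was at 3.49, 3.87 and 4.08 CPM in WT and at 5.14, 3.67 and 4.53 CPM in mutants (log2 fold change 0.21, SE 0.15). *Erbb2*, the kinase partner of *Erbb3*, was at 66.7, 70.9 and 68.4 CPM in WT and at 60.8, 60.3 and 66.2 CPM in mutants. The *Erbb2* groups did not overlap, by a gap of less than the spread among mutants, and the log2 fold change was -0.14 (SE 0.05, edgeR adjusted p = 0.515).

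The partners of *Pdgfra* and *Itga4* were mostly overlapping between the groups. The PDGF ligand genes had log2 fold changes of 0.07 (SE 0.06) for *Pdgfa* and -0.06 (SE 0.14) for *Pdgfc*. *Itgb1*, the subunit that pairs with *Itga4*, had a log2 fold change of 0.004 (SE 0.066), and *Fn1*, the fibronectin that the pair binds, one of 0.01 (SE 0.15). *Vcam1*, the other ligand of the pair, was at 7.77, 6.08 and 6.22 CPM in WT and at 4.29, 5.25 and 5.05 CPM in mutants. All mutant libraries were below all WT libraries for *Vcam1*, with a log2 fold change of -0.45 (SE 0.13, edgeR adjusted p = 0.435). *Sort1*, a partner of the p75 receptor, was at 114.8, 113.8 and 114.2 CPM in WT and at 102.8, 106.5 and 109.1 CPM in mutants (log2 fold change -0.11, SE 0.04, edgeR adjusted p = 0.503).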

How the data were processed

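RNA of 3 WT and 3 *Snrpb*ncc+/- pools of 2 heads was made into stranded total RNA libraries after ribosomal depletion and sequenced with paired reads. The authors mapped reads to mm10 with STAR and deposited raw counts per gene symbol, whole numbers without normalization. The study's methods name HTSeq as the counter and the submitters' processing notes name featureCounts, and the strand setting is not given in the sources used here. All 6 columns were mapped to samples by their labels (0 left unmapped).

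Counts were fitted in R (version 4.3.3) with edgeR (version 4.0.16), using TMM factors, filterByExpr, robust quasi-likelihood dispersions, no covariate, a two-sided test and Benjamini-Hochberg adjustment over the 15584 genes kept of 24421. The threshold was an adjusted p of 0.05. SEs and 95% intervals are on the log2 scale. Log2 CPM used a prior count of 2. DESeq2 (version 1.42.0), the authors' tool, was an alternative (12908 genes with an adjusted p). Other alternatives were DESeq2 size factors, library size, a block for the replicate number, each library left out in turn, no filter, and a filter of 10 counts or more in all libraries. The fitting was tested on simulated counts. Coordinates, lengths and overlaps come from Gencode M21, which matched 23376 symbols by name, 42 of them to more than 1 gene. Figures used matplotlib (version 3.10.9).

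The members and all gene lists were chosen with earlier results of these data known. The genes named are all 35 members and *Snrpb*, 11 fixed ligands and partners, up to 4 genes from each of 2 further lists with the smallest unadjusted p under 0.05 and non-overlapping groups, and markers needed to describe the libraries. *Sox11*, *Yap1*, *Otx2*, *Meox1*, *Tbx18* and *Tbx6* were named after their values were seen. Some genes that this rule names are not reported here.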

Additional observations from a re-analysis of the deposited data

How the results depend on the processing

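No neural crest gene passed an adjusted p of 0.05 in any of the 12 alternatives, and the smallest value reached was 0.262 (*Alx4* without WT replicate 2). The median log2 fold change moved by less than the spread between replicates in all of them, from -0.09 to -0.01 with 1 library left out. The number of genes at an unadjusted p under 0.05 was 1 in the reported fit, 2 with DESeq2 (both lower, as were 2.92% of all genes) and 1 to 7 with 1 library left out. The number with non-overlapping groups was 1 and then 2 to 10, where 22.4 to 29.4% of all genes were apart in either direction. Both maxima came without WT replicate 2, with all 7 and all 10 genes lower in mutants, against 6.23% and 14.4% of all genes.

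With the replicate block, 4 genes were at an unadjusted p under 0.05 (*Pax3*, *Zic2*, *Ednrb* and *Pdgfra*, all lower, as were 4.14% of all genes) and 0 passed the adjusted threshold. The sources used here do not say that a replicate number marks a shared litter, batch or day. Deviations of same-numbered libraries correlated at 0.17, 0.03 and 0.36. WT replicates 1 and 3 correlated best with the mutant library of their own number, while WT replicate 2 did so with mutant replicate 1 (0.039). With 3 libraries per group these correlations cannot decide whether same-numbered libraries shared a litter, batch or day.

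Of 420 values of single genes, 385 kept their direction and 35 did not. *Nrp2* turned to -0.00301 with DESeq2 and -0.00135 with its size factors, *Tfap2c* to 0.00787 and *Nrp1* to 0.00452 with library size, and *Nrp1* to 0.00603 with the replicate block. With 1 library left out, log2 fold changes crossed 0 for *Pax7* (-0.35 to 0.086), *Zic5* (-0.23 to 0.11), *Tfap2b* (-0.060 to 0.10), *Tfap2c* (-0.078 to 0.034), *Snai1* (-0.12 to 0.023), *Snai2* (-0.020 to 0.10), *Sox5* (-0.0067 to 0.14), *Sox9* (-0.019 to 0.21), *Sox10* (-0.17 to 0.13), *Foxd3* (-0.13 to 0.27), *Ets1* (-0.019 to 0.20), *Twist1* (-0.16 to 0.037), *Erbb3* (-0.13 to 0.098), *Nrp1* (-0.15 to 0.10), *Nrp2* (-0.036 to 0.072), *Cdh11* (-0.12 to 0.031), *Prrx2* (-0.030 to 0.23), *Chd7* (-0.18 to 0.024) and *Nr2f1* (-0.12 to 0.014). The parts of read depth and of the spread between pools in the standard errors were not separated.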
